A study of Mus musculus with 12 samples.

Results

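Interferon-stimulated genes and their regulators were examined in the pancreas of mice with elevated HuR. A fixed list of 35 genes was matched by symbol to the rows of the expression arrays, and the row with the highest mean was taken for each gene. Of the 35, 34 had a row among the 30743 named genes of the arrays, and Ifi44 was not analysed here because no row carried its name. The list was divided by role. It held 6 genes that sense or edit nucleic acid, here called sensors although Adar is an editor, and 4 STAT and IRF regulators. A further 10 were modifiers of the ISG15, ubiquitin and ADP-ribose systems. The other 15 were effectors and other induced genes, of which 14 were measured. The list is one of named genes, with no threshold on their values, and was drawn up with earlier results of these data known.

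The study profiled 12 pancreas samples of mice aged 6 months, 1 array each. Of these, 6 were controls with the genotype Pdx1/Cre and 6 had the genotype Pdx1/Cre + Traffic-HuR, here the HuR group. Both groups thus carried Cre recombinase under the promoter of Pdx1, a gene of the pancreatic lineage. HuR, the product of Elavl1, binds AU-rich messages. The comparison asked how elevated HuR changes gene expression in the pancreas. The labels do not say whether each sample came from a separate mouse, so p-values measure only the spread between these samples. Whole tissue was measured, in which more cells of a type and more RNA per cell cannot be told apart.

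Type I interferons bind a receptor that activates the kinases JAK1 and TYK2. These phosphorylate STAT2, which joins IRF9 in a complex that binds interferon-stimulated response elements (ISRE) near the induced genes, while interferon gamma acts mainly at gamma-activated sites (GAS). Many induced genes encode parts of the pathway itself: RNA sensors, STAT2, IRF7 and IRF9 on the forward arm, and USP18, which restrains the receptor. Tissue cells and macrophages both carry this response.

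Promoter sequences of RefSeq (GRCm38.p6, 250 bases before to 50 after each start) were held for 26 of the 35 genes and were read for both motifs on both strands. They are shown because the listed genes are classed by their response to interferon. The ISRE core was searched as 2 copies of GAAA with any 2 bases between them, and the GAS core as TTC and GAA with any 3 bases between them, and matches can overlap. Capitals mark the matches, and an ISRE core on the opposite strand reads as copies of TTTC. The windows are chr8:71537577-71537618 (minus strand) for Bst2, chr4:156200865-156200906 (minus) for Isg15, chr19:34640775-34640823 (plus) for Ifit1, chr19:34583363-34583426 (plus) for Ifit3, chr12:26456553-26456582 (minus) for Rsad2, chr10:128270266-128270295 (plus) for Stat2 and chr11:53769914-53769942 (plus) for Irf1.
Bst2: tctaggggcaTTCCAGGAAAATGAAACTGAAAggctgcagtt
Isg15: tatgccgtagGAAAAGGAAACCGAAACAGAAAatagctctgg
Ifit1: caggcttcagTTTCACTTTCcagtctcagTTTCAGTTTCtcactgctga
Ifit3: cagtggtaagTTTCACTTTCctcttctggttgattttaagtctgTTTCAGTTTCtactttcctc
Rsad2: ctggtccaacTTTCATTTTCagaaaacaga
Stat2: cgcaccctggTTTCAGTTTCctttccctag
Irf1: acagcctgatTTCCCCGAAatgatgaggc

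The Bst2 window held 2 overlapping ISRE cores and a GAS core that overlapped the first of them, and the Isg15 window held 3 overlapping ISRE cores. Ifit1 and Ifit3 each held 2 separate ISRE cores, Rsad2 and Stat2 held 1, and Irf1 held a GAS core alone. At least 1 ISRE core lay in the promoters of 11 of the 26 genes (42.3%) and in those of 1079 of all 27025 genes with a promoter sequence (3.99%). A GAS core lay in 6 of 26 (23.1%) and in 9.55% of all genes. By position in the RefSeq gene order, Rsad2 and Cmpk2 were direct neighbours, as were Parp14, Dtx3l and Parp9, and Ifit2 and Ifit3.

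Array medians ran from 4.42 to 4.60 on the log2 scale, and the background rows had a median of 3.74. Levels are log2 values, and differences are HuR minus control in log2 units with their standard error (SE) from the limma fit. Elavl1 itself differed by 0.24 (SE 0.074), or 1.18-fold. Its two-sided exact permutation p was 0.0108, and its limma adjusted p was 0.833. Of the HuR arrays 5 lay above every control in Elavl1, and HuR replicate 5 lay inside the control range. Pancreatic identity was plain, as the acinar enzyme genes Cpa1, Cel, Prss2 and Ctrb1 stood at the top of the scale on all 12 arrays. Control replicate 2 and HuR replicate 2 each stood apart from the other arrays of their group in the markers of macrophages and adipocytes given below. Control replicate 2 also had the highest B cell marker mean of the 12 arrays, 6.47. Xist, which marks female tissue, was above 10 in 2 control and 3 HuR arrays, and the labels give no sex. With this Xist class as a covariate, an alternative chosen after seeing the data, the median difference of the 34 genes was 0.55 instead of 0.53.

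The mean of the HuR samples exceeded that of the controls in all 34 measured genes, where 47.8% of all genes did. The median difference was 0.53, or 1.44-fold, against -0.003 over all genes. The differences ran from 0.11 for Mx1 to 2.29 for Ifi27, and 3 of 34 were 2-fold or more: Ifi27, Bst2 and Usp18. Among all genes 0.585% were higher by that much. At an unadjusted p under 0.05, 25 of the 34 were higher and 0 were lower, where 2.95% of all genes were higher, or 4.13% of the 18326 genes above the median row. After adjustment over all 30743 genes limma called 0 members and 0 genes (0%), so no difference here passed the study-wide threshold of 0.05. The smallest adjusted p in the whole comparison was 0.371, shared by 12 genes, and Ifi27 was one of them, ranked 2 by p. Bst2 had an adjusted p of 0.629, and the other 32 members ran from 0.833 to 0.886.

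**Figure D1:**
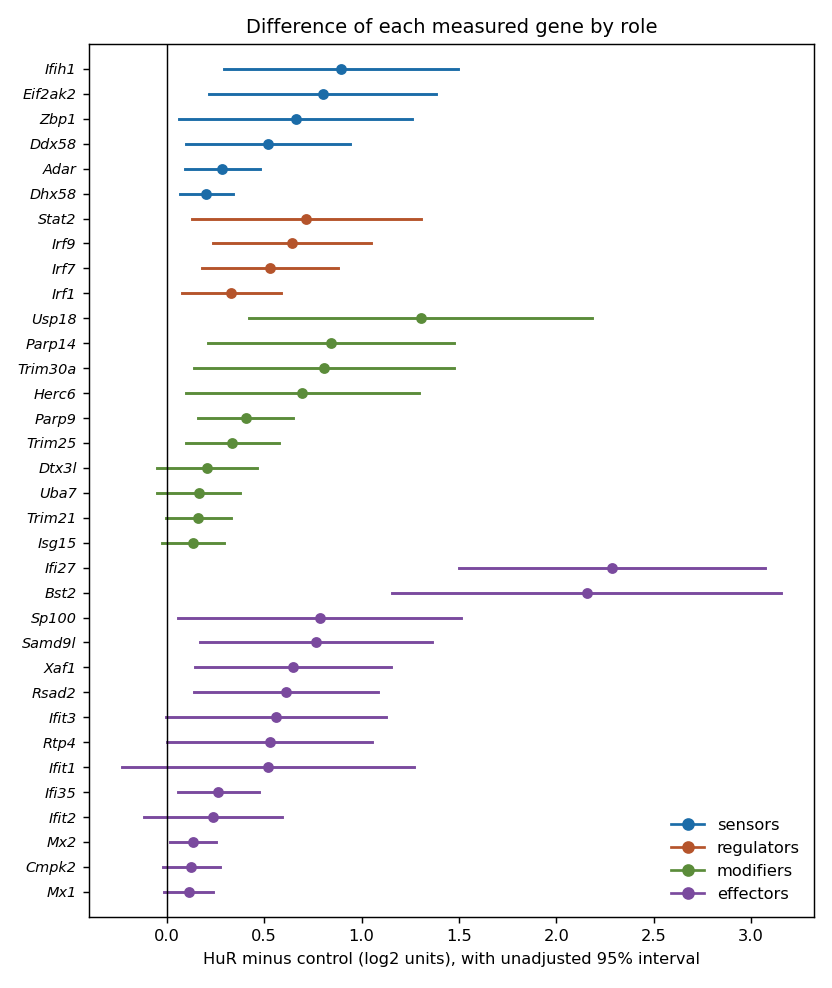
Difference between HuR and control samples for each of the 34 measured genes, in log2 units, with unadjusted 95% intervals from the limma fit and coloured by role. All points lie right of 0, Ifi27 and Bst2 lie above 2, and the interval of 9 genes includes 0.

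The 34 genes were not higher by the same amount on each HuR array. The median deviation of the 34 genes from their control means was 1.17 on HuR replicate 2, 0.73 on replicate 6 and 0.70 on replicate 3. It was 0.23 on replicate 1, 0.12 on replicate 5 and 0.10 on replicate 4. The control arrays ran from -0.21 to 0.32, with replicate 2 at the top and replicate 6 next at 0.13. HuR replicates 1, 4 and 5 therefore lay inside the control range by this measure, and replicates 2, 3 and 6 lay above it. HuR replicate 2 exceeded every control in all 34 genes, replicate 6 in 29 and replicate 3 in 28. Replicates 1, 5 and 4 did so in 11, 8 and 3. The share of all genes above every control was not counted for single arrays, so these counts cannot be set against it.

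Only Ifi27 separated the groups on all arrays, 1 of 34 genes, where 0.166% of all genes did. At least 5 of 6 HuR arrays lay above every control in 8 of 34, where 0.911% of all genes did. Control replicate 2 was the highest control in 26 of the 34 genes, and in 15.2% of all genes. HuR replicate 2 was the highest HuR array in 23 (22% of all genes), and HuR replicate 4 the lowest in 19 (17.8% of all genes). With control replicate 2 left out, 6 genes did not overlap, against 0.576% of all genes: Ifi27, Ifih1, Usp18, Parp9, Ifit3 and Samd9l.

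**Figure D2:**
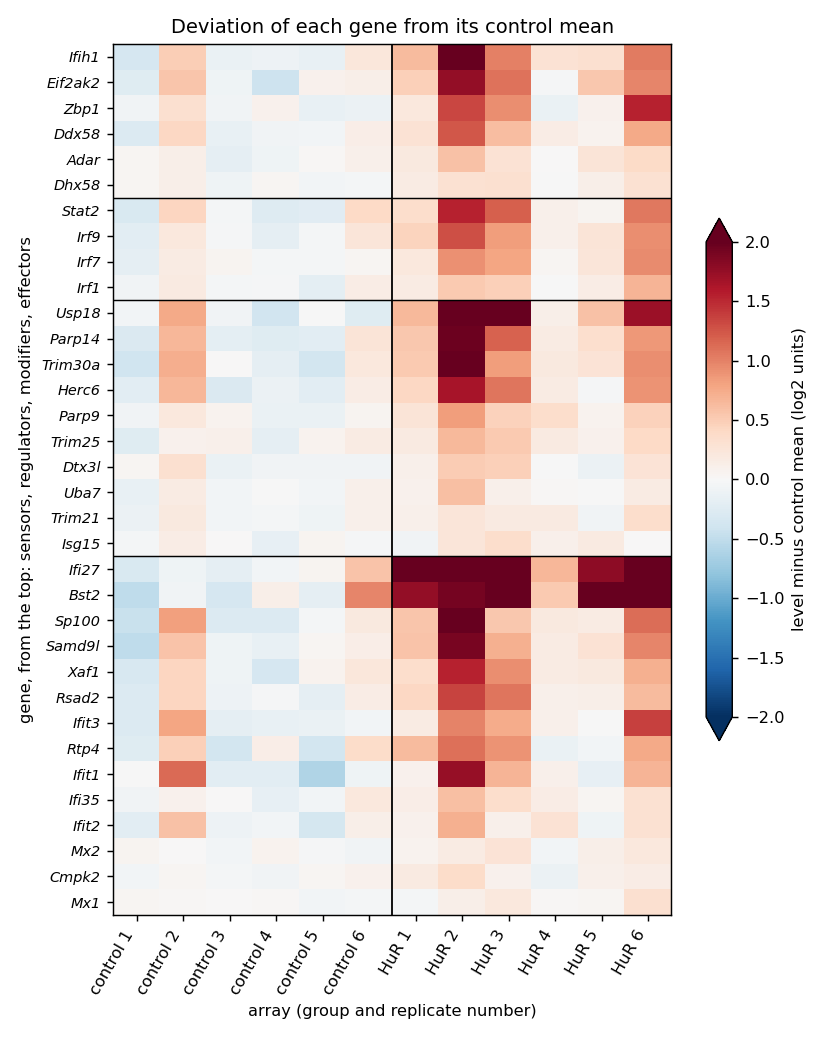
Level of each of the 34 genes on each of the 12 arrays, minus the gene's mean over the 6 control arrays, in log2 units; the colour scale ends at 2 in either direction. HuR replicates 2, 3 and 6 are raised across most rows, control replicate 2 is the highest control in 26 rows, and Ifi27 and Bst2 are also raised on HuR replicates 1 and 5.

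Sensors were considered first. All 6 were higher at an unadjusted p under 0.05, with a median difference of 0.59, or 1.50-fold. Ifih1 encodes MDA5, which detects long double-stranded RNA. Its level was 6.08 at the lowest, 6.31 at the median and 6.91 at the highest in controls, and 6.72, 7.25 and 8.50 in HuR samples. The highest control, replicate 2, reached into the HuR range, and the other 5 controls lay below every HuR array. The difference was 0.90 (SE 0.275), or 1.86-fold, and the exact permutation p was 0.00866.

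Dhx58 encodes LGP2, a helicase that modulates the signalling of the other RNA helicases. It ran from 4.89 over a median of 4.98 to 5.10 in controls and from 4.98 over 5.21 to 5.30 in HuR samples. HuR replicates 4 and 5 lay inside the control range, and the difference was small at 0.20 (SE 0.062). Adar, the editor of double-stranded RNA, ran from 5.91 over 6.13 to 6.21 in controls and from 6.10 over 6.36 to 6.67 in HuR samples. Of the HuR arrays 5 lay above every control, and the difference was 0.28 (SE 0.088), or 1.22-fold.

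Zbp1, a sensor of Z-form nucleic acid, had the largest p among the sensors. It ran from 4.95 over 5.03 to 5.43 in controls and from 4.97 over 5.67 to 6.63 in HuR samples. HuR replicates 2, 3 and 6 lay above all controls and replicate 4 was near the control minimum, and the means differed by 0.66 (SE 0.274). With all assignments enumerated, the permutation p for Zbp1 was 0.0584 (exact). Ddx58, which encodes RIG-I, differed by 0.52 (SE 0.192), and Eif2ak2, which encodes the RNA-activated kinase PKR, by 0.80 (SE 0.266).

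All 4 regulators were higher at an unadjusted p under 0.05, with a median difference of 0.58. Irf9, the DNA-binding partner of STAT2, ran from 5.68 over 5.85 to 6.12 in controls and from 5.98 over 6.52 to 7.17 in HuR samples. Only HuR replicate 4 lay inside the control range. The difference was 0.64 (SE 0.186), or 1.56-fold, and the exact permutation p was 0.00866. Irf7, which drives transcription of interferon alpha genes, ran from 4.98 over 5.17 to 5.33 in controls and from 5.21 over 5.69 to 6.12 in HuR samples. Again HuR replicate 4 alone overlapped the controls, and the means differed by 0.53 (SE 0.160). For Irf7 the exact permutation p was 0.00649.

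Irf1, a factor best known for its induction by interferon gamma, ran from 5.75 over 5.91 to 6.11 in controls and from 5.93 over 6.26 to 6.62 in HuR samples. HuR replicates 2, 3 and 6 exceeded all controls, and the difference was 0.33 (SE 0.117). Irf1 has 2 rows, and with their mean in place of the brighter row the difference was 0.15. Stat2 ran from 6.44 over 6.61 to 7.17 in controls and from 6.79 over 7.45 to 8.29 in HuR samples. As with Irf1, HuR replicates 1, 4 and 5 stayed below the highest control. Stat2 differed by 0.72 (SE 0.270), and its exact permutation p, 0.0411, was the largest of the regulators.

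**Figure D3:**
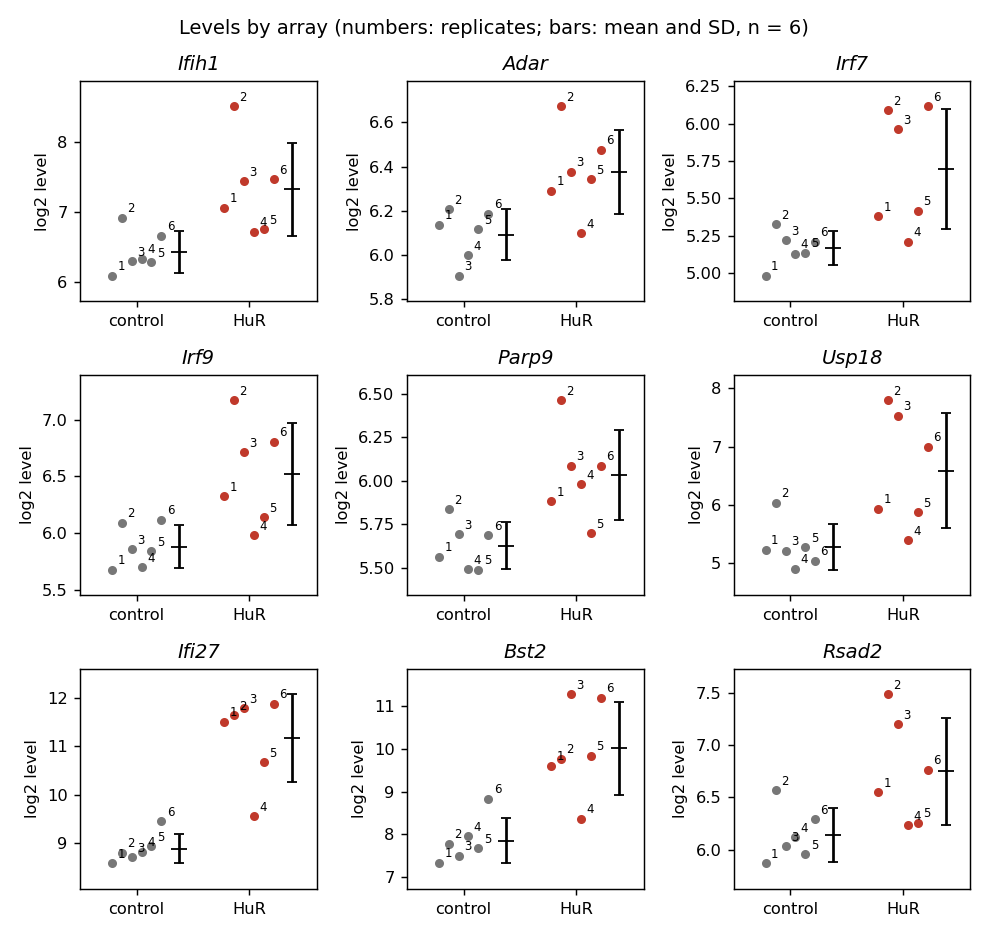
Log2 level on each array for 9 genes, with control samples in grey and HuR samples in red; numbers are replicate numbers, and bars give the mean and SD of 6 arrays. Each panel has its own axis, which does not start at 0. Only in Ifi27 do all HuR arrays lie above all controls, and HuR replicate 4 is the lowest HuR array in each panel except Parp9.

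Of the 10 modifiers, 6 were higher at an unadjusted p under 0.05, and the median difference was 0.37. Parp9 encodes an ADP-ribosyltransferase that acts with the ubiquitin ligase DTX3L. It ran from 5.49 over 5.63 to 5.84 in controls and from 5.70 over 6.03 to 6.46 in HuR samples. HuR replicate 5 was the only one below the highest control, and the difference was 0.41 (SE 0.112), or 1.32-fold, and the exact permutation p was 0.00433.

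Usp18, the protease that removes ISG15 from proteins and blocks receptor signalling, had the largest difference of this group. It ran from 4.91 over 5.22 to 6.04 in controls and from 5.39 over 6.47 to 7.80 in HuR samples. HuR replicates 2, 3 and 6 stood above all controls, while replicates 1, 4 and 5 stayed below the level of control replicate 2. The difference was 1.30 (SE 0.403), or 2.47-fold, and the exact permutation p was 0.0130. Trim25, the ubiquitin ligase that acts on RIG-I, ran from 7.37 over 7.69 to 7.78 in controls and from 7.69 over 7.90 to 8.26 in HuR samples. Of the HuR arrays 5 lay above every control, at a difference of 0.34 (SE 0.109).

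The core of the ISG15 system was less different than its protease. Isg15 itself differed by 0.13 (SE 0.074). Its row stood at 4.52 ± 0.11 (SD, n = 6) in controls, next to the median row level of 4.52. Whether so low a row can show a change was not tested. Uba7, the activating enzyme of ISG15, ran from 4.69 over 4.81 to 5.01 in controls and from 4.84 over 4.93 to 5.45 in HuR samples, with HuR replicate 2 alone above all controls. It had the largest p of the modifiers, with a difference of 0.16 (SE 0.098). Its 95% interval was -0.05 to 0.38, and its exact permutation p was 0.117. Without HuR replicate 2 Uba7 differed by 0.07. Herc6, which encodes the ligase for ISG15 in mice, differed by 0.70 (SE 0.274). The difference between Usp18 and Isg15 was not tested.

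Among the other modifiers, Parp14 differed by 0.84 (SE 0.289), and its neighbour Dtx3l by 0.20 (SE 0.118). Trim30a, which has close relatives in mice, so that its row may take up their signal, differed by 0.81 (SE 0.305). Trim21, a cytosolic antibody receptor, differed by 0.16 (SE 0.075), and its interval included 0. The neighbours Rsad2 and Cmpk2 differed by 0.61 and 0.13. Differences between neighbouring genes were not tested.

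Of the 14 measured effectors, 9 were higher at an unadjusted p under 0.05, and the median difference was 0.54, or 1.46-fold. Ifi27, a small membrane protein of mitochondria and the nuclear envelope, had the largest difference and the smallest p of the 34 genes. It ran from 8.59 over 8.82 to 9.46 in controls and from 9.56 over 11.57 to 11.88 in HuR samples. HuR replicates 1, 2, 3 and 6 stood between 11.51 and 11.88, replicate 5 at 10.67, and replicate 4 at 9.56, just above control replicate 6. The difference was 2.29 (SE 0.359), or 4.88-fold, and the 95% interval was 1.50 to 3.07. The exact permutation p was 0.00216, the smallest that 6 against 6 arrays can give, and the limma adjusted p was 0.371.

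HuR replicate 4 was the lowest HuR array for Ifi27, so leaving it out was bound to raise the difference. Without HuR replicate 4, Ifi27 differed by 2.61 (SE 0.219) and was called by limma at an adjusted p of 0.0051. Lgals9, which is not a member, was the only other gene called there. With any other array left out, the adjusted p of Ifi27 lay above 0.05. The row of Ifi27 carried a second name, Ifi27l1, which RefSeq lists as a synonym of the same gene. Ifi27 is in turn listed as a synonym of its relative Ifi27l2a, which has a row of its own and was picked with its values known. Ifi27l2a differed by 0.90 (SE 0.373) and was highest, at 9.57, on HuR replicate 2.

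Bst2 encodes tetherin, which holds budding viruses at the cell surface. It ran from 7.34 over 7.73 to 8.83 in controls and from 8.37 over 9.80 to 11.28 in HuR samples. HuR replicates 3 and 6 were the highest at 11.28 and 11.19, replicates 1, 2 and 5 stood between 9.60 and 9.83, and replicate 4 lay below control replicate 6. The difference was 2.16 (SE 0.458), or 4.46-fold, and the exact permutation p was 0.00433. Rsad2, which encodes the antiviral enzyme viperin, ran from 5.87 over 6.07 to 6.57 in controls and from 6.23 over 6.66 to 7.49 in HuR samples. It differed by 0.61 (SE 0.217), and 3 HuR arrays lay below the highest control.

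The IFIT genes, whose products bind foreign RNA and are often taken as type I interferon markers, did not pass an unadjusted p of 0.05 over all 12 arrays. Ifit2 had the largest p of the effectors. It ran from 4.62 over 4.89 to 5.55 in controls and from 4.88 over 5.17 to 5.67 in HuR samples, where HuR replicate 2 alone exceeded all controls. Its difference was 0.24 (SE 0.162) with an interval of -0.12 to 0.59, and its exact permutation p was 0.204. Ifit1 differed by 0.52 (SE 0.343) and Ifit3 by 0.56 (SE 0.258). In all 3 the highest control was replicate 2, at 6.94 for Ifit1 and 7.19 for Ifit3. Ifit1 and Ifit3 have close copies in the mouse genome, so their rows are uncertain.

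Without control replicate 2, Ifit1 differed by 0.75, Ifit2 by 0.36 and Ifit3 by 0.72, and each then passed an unadjusted p of 0.05. Without HuR replicate 2 they differed by 0.28, 0.14 and 0.48, and none of the 3 passed. Mx1 and Mx2, antiviral GTPase genes that RefSeq marks as transcribed pseudogenes in this assembly, differed by 0.11 (SE 0.058) and 0.13 (SE 0.053). The mean of Mx1 was the only one below the median row level. Cmpk2, a mitochondrial nucleotide kinase, differed by 0.13 (SE 0.067), and by 0.08 without HuR replicate 2 or after a new quantile normalization. Without HuR replicate 6 Mx1 differed by 0.07. The remaining effectors were higher by 0.27 for Ifi35, 0.53 for Rtp4, 0.65 for the apoptosis factor Xaf1, 0.77 for Samd9l and 0.78 for the nuclear body protein gene Sp100. For these 5 the unadjusted limma p was under 0.05, with HuR replicate 2 the highest array in each. Rtp4 was near that limit, with a limma p of 0.0490 and an exact permutation p of 0.0736. Without HuR replicate 2 Sp100 differed by 0.51 and no longer passed.

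Across arrays most of the genes varied together. After each group's mean was taken off, the correlation of a gene with the median of the other 33, over 12 arrays that share tissue and processing, was above 0.8 in 25 of 34, against 2.16% of all genes for the correlation with the median of the 34. Herc6, Parp14 and Ddx58 led at 0.98. Bst2 (0.48), Mx2 (0.48), Isg15 (0.46) and Mx1 (0.45) were lowest, and Ifi27 had 0.66. Without control and HuR replicate 2, over 10 arrays, Bst2 had 0.93 and Ifi27 0.86, while Isg15 had 0.18 and Ifit2 0.40. Bst2 and Ifi27 correlated with each other at 0.84 over 12 arrays and 0.90 over 10.

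The rest of the pathway was read from a second list of 50 genes, of which 47 were measured. None of them passed an unadjusted p of 0.05 in either direction by limma (0 of 47), where 2.95% of all genes were higher and 2.86% lower. Of 19 measured interferon genes 9 were higher and 10 lower, with a median difference of -0.003, and only 5 had a mean above the median row. Ifnb1, the interferon beta gene and the brightest of them, differed by 0.18 (SE 0.102), and Ifng by 0.10 (SE 0.069). Rows this close to the background set no limit on the ligands.

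Receptor genes were higher in 5 of 6, with Ifngr1, the brightest, at 0.39 (SE 0.357) and an interval of -0.39 to 1.17. Of the 3 measured receptor kinases the brightest, Jak1, differed by -0.12 (SE 0.175). Genes of upstream sensing were higher in 11 of 13, with a median of 0.08, and the kinase gene Tbk1, the brightest, differed by 0.14 (SE 0.098). Genes that restrain the response were higher in 5 of 6, with Pias1 at 0.17 (SE 0.158). Single genes of this second list ran from -0.15 to 0.44, with a median of 0.06. The 34 genes ran from 0.11 to 2.29, with a median of 0.53, so the 2 ranges overlapped. The difference between the lists was not tested.

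**Figure D4:**
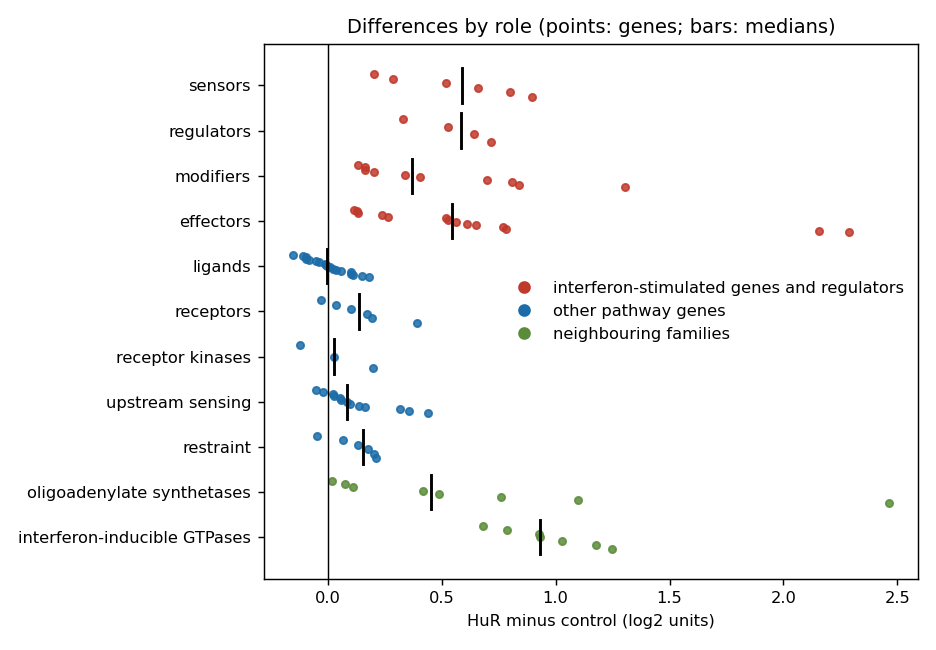
Difference between HuR and control samples in log2 units for each measured gene, by role, with the median of each role as a bar. The 34 interferon-stimulated genes and regulators lie between 0.11 and 2.29, and the ligands between -0.15 and 0.18.

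Neighbouring families of induced genes ran from 0.02 to 2.46. Oligoadenylate synthetase genes were higher in 8 of 8, with 4 at an unadjusted p under 0.05, a median of 0.45 and Oas2 at 2.46 (SE 0.577). Interferon-inducible GTPase genes were higher in 7 of 7 measured, 6 of them at an unadjusted p under 0.05, with a median of 0.93 and Irgm1 at 0.93 (SE 0.252). The difference between these families and the 34 genes was not tested.

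Markers of cell types were read beside these genes, and only some of the lists moved with them. For all 13 macrophage markers the HuR mean exceeded the control mean, with a median difference of 0.62, and 4 passed an unadjusted p of 0.05. These 4 were Ctss (1.71), Mpeg1 (1.29), Fcgr1 (0.72) and Ccr2 (0.49). The list was uneven, as Csf1r differed by 0.31, C1qa by 0.23, Itgam by 0.15, Cd14 by 0.12 and Cx3cr1 by 0.08. The mean level of the 13 markers ran from 6.27 to 7.57 in controls and from 6.75 to 8.59 in HuR samples. It was highest in replicate 2 of each group, and all 13 lay above the median row. Over 12 arrays, with group means taken off, the median of the 34 genes correlated with the macrophage mean at r = 0.92 (rho = 0.91), and at 0.82 over the 10 arrays without replicate 2 of either group. Single genes differed in this: Sp100 and Trim30a correlated at 0.98 and 0.97, Irf1 at 0.67, Ifi27 at 0.46 and Bst2 at 0.21. Over the 10 arrays Ifi27 and Bst2 correlated with the macrophage mean at 0.74 and 0.67. The part of macrophages in the differences of the 34 genes was not tested.

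**Figure D5:**
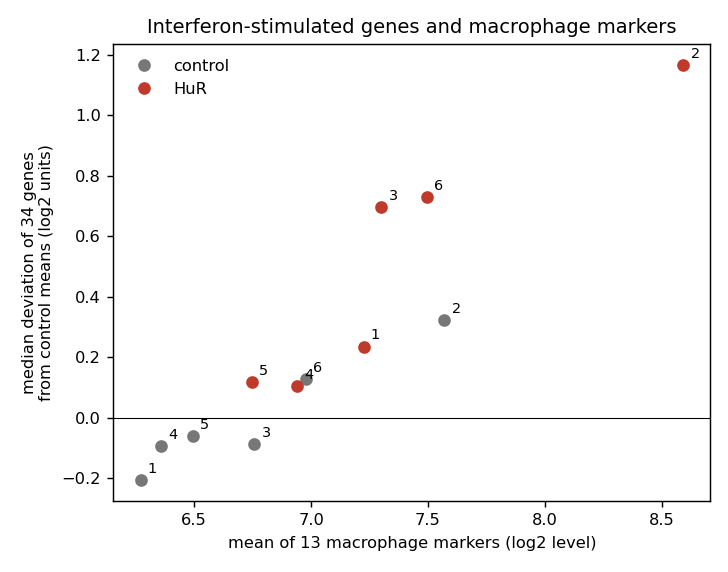
Median deviation of the 34 genes from their control means, in log2 units, against the mean log2 level of 13 macrophage markers on the 12 arrays, with replicate numbers beside the points. HuR replicates 3 and 6 lie at 0.70 and 0.73, and control replicate 2, with a macrophage mean of 7.57, lies at 0.32.

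HuR replicate 6 had a macrophage mean of 7.50 and a median deviation of 0.73, while control replicate 2 had 7.57 and 0.32. HuR replicate 4 and control replicate 6 were close in both, with macrophage means of 6.94 and 6.98 and median deviations of 0.10 and 0.13. Adipocyte markers were higher in 6 of 6 measured, 2 of them at an unadjusted p under 0.05, with levels of 6.05 to 8.99 in controls and 6.85 to 10.37 in HuR samples, and correlated with the 34 genes at 0.68 over 12 arrays and 0.05 over 10. T and NK cell markers were higher in 7 of 7, 5 of them at an unadjusted p under 0.05. Their mean levels were 4.48 to 4.67 in controls and 4.66 to 5.08 in HuR samples, with Cd3d, Cd8a and Ncr1 at or below the median row. The T and NK mean correlated with the 34 genes at 0.62 over 12 arrays and 0.71 over 10. With Ifi27 and Bst2 it correlated at 0.52 and 0.48 over 12 arrays, and at 0.59 and 0.63 over 10. Of 8 markers of plasmacytoid dendritic cells, strong producers of interferon, 3 were higher and 5 lower, with a median difference of -0.01. Cd209d was lower by an unadjusted p under 0.05. The mean level of these markers was 5.24 to 5.58 in controls and 5.18 to 5.40 in HuR samples, with Ccr9, Pacsin1 and Klra17 at or below the median row. Siglech, a defining marker, differed by -0.01 (SE 0.071). Islet markers were lower in 5 of 5 measured (median -0.86, 0 at an unadjusted p under 0.05 by limma), and acinar transcription factors in 5 of 5 (median -0.08, 1 at that p). Neutrophil markers were higher in 5 of 5 (median 0.08), conventional dendritic markers in 5 of 6 (0.05) and endothelial markers in 4 of 5 (0.05). B cell markers were higher in 2 of 4 measured (0.03) and duct markers in 1 of 3 (-0.11). None of these passed an unadjusted p of 0.05 by limma. With group means taken off, the 34 genes correlated with conventional dendritic markers at 0.64 over 12 arrays and 0.22 over 10. B cell markers gave 0.54 and 0.48, and islet markers 0.44 and 0.26. Endothelial markers gave 0.34 and -0.07, and plasmacytoid dendritic markers 0.005 and -0.34. Neutrophil markers gave -0.49 and -0.315, duct markers -0.28 and -0.06, and acinar factors -0.595 and 0.105. The part of these cells was not tested either.

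Without both arrays that stood apart, the 34 genes had a median difference of 0.51, and 26 of them were higher at an unadjusted p under 0.05, where 3.58% of all genes were. Ifi27 then differed by 2.18 and Bst2 by 2.19. Without control replicate 2 alone, 31 of 34 were higher at that p (3.42% of all genes). Without HuR replicate 2 alone 21 were (3.04% of all genes), at a median difference of 0.43, and limma called 1 gene (0.00325% of all), which was not a member. Without HuR replicate 4 alone 27 were (3.97% of all genes), at a median of 0.64, and limma called 2 genes (0.00651% of all), of which Ifi27 was 1.

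The genes with an ISRE core in the promoter window had a median difference of 0.61 (11 measured genes), and those with a promoter sequence but no such core 0.33 (14 measured genes). An unadjusted p under 0.05 was reached by 7 of 11 and 10 of 14. The difference between these was not tested. Among other genes of the arrays with a promoter sequence, 6.51% of 691 with an ISRE core and 2.28% of 17486 without one were higher at an unadjusted p under 0.05. The median differences of these sets were 0.0001 and -0.006. Only the listed genes were left out of them, and the neighbouring families of induced genes were not. The difference between these 2 sets was not tested either.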

How the data were processed

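The deposited values are log2 expression values that the authors made with RMA, per the labels; RMA removes background, equalizes the arrays and gives 1 value per probe set. Affymetrix Expression Console 1.4 and, separately, Transcriptome Analysis Console 3.1 are named in the submitters' processing notes. The genome build of the array is not given in the sources used here. Control rows (6732 of 72688) were left out. A row was named where the platform annotation gave 1 gene, including 612 rows whose names RefSeq lists as synonyms of 1 gene; 1534 rows with several genes were not named and 33206 had no symbol. RefSeq (GRCm38.p6) supplied current symbols by gene identifier, and the row with the highest mean was kept for each of 30743 genes.

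The fit used limma 3.58.1 in R 4.3.3 over all 12 arrays, with Benjamini-Hochberg adjustment over all genes, and was tested on simulated data. Exact permutation tests (two-sided, SciPy 1.17.1) were run for single genes. Intervals are 95% and unadjusted. Number of arrays limits the precision.

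Members and lists were chosen with earlier results of these data known. All members are named. Those given in full are the 3 with the smallest p and the 1 with the largest in each role. Of other pathway genes the brightest of each role is named, with Ifnb1 and Ifng, and of each neighbouring family the member with the smallest p.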

Additional observations from a re-analysis of the deposited data

Results flagged for a closer look

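Within groups of 6 arrays, the gap of the highest or lowest array to its nearest neighbour was set against the range of the group for each of the 34 genes. Of 68 such groups 4 held an array farther from the others than Dixon's 95% limit allows, and chance gives about 1 in 20. Control replicate 2 was that array in 3 of them, high at 6.04 for Usp18, 6.94 for Ifit1 and 7.19 for Ifit3. HuR replicate 2 was the array in the other, high at 5.45 for Uba7. Both arrays also had the highest macrophage mean of their group, 7.57 and 8.59.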

How the results depend on the processing

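Over 12 fits that left out 1 array each, limma called 0 to 2 genes, the 34 genes had a median difference of 0.43 to 0.65, and 20 to 31 of them were higher at an unadjusted p under 0.05. The 2 genes called without HuR replicate 4 were Ifi27 and Lgals9, and 1 was called without HuR replicate 2, Gm7003, which is not a member. With the replicate number as a block, limma called 0 genes and 29 members were higher at an unadjusted p under 0.05, where 4.46% of all genes were; Ifit1, Ifit2, Ifit3 and Uba7, which did not pass without the block, were among them. No label says that same-numbered samples pair, so the main fit had no block. With group means taken off, the arrays numbered 2 correlated at 0.63 and the other same-numbered arrays between -0.08 and 0.18. Of the HuR arrays 2 correlated best with the control of their own number. Whether the samples pair was not settled. Each of the 34 differences kept its sign in all fits (713 values in all), namely the block, a filter at the median row, a new quantile normalization, median centring, averaging the rows of a gene, array weights, a trended robust variance, the Xist covariate and the arrays left out. Mx1 could not be fitted with the filter. Ifi27 ran from 2.15 to 2.61 and Bst2 from 1.90 to 2.48. An adjusted threshold of 0.1 called 0 genes. Low rows, such as those of Isg15, Mx1 and the interferon genes, may limit what can be seen, which was not tested.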

Other observations

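The 6 genes outside the lists whose deviations from the group means were most like the median of the 34 genes, over 12 arrays, were Rnf213, AW112010, Parp12, Zc3hav1, Gbp11 and Gm4951, with correlations of 0.96 to 0.99. Rnf213, a large ubiquitin ligase, correlated at 0.99 and differed by 0.90 (SE 0.366). Parp12 and Zc3hav1, relatives of the PARP genes above, correlated at 0.97 and differed by 0.89 (SE 0.251) and 0.44 (SE 0.172). AW112010 differed by 1.27 (SE 0.445), Gm4951 by 1.20 (SE 0.313) and the guanylate-binding protein gene Gbp11 by 0.78 (SE 0.302). None was called by limma, with adjusted p from 0.833 to 0.844.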
